A study of Mus musculus with 61 samples.

Results

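The fractions at the level of the midbrain were 4 of the 29 coronal fractions of this study, and 4 of its 61 fractions in all. They were chosen by their numbers and not by a measured value, as C5 and C6 of the brain cut in the coronal plane (series C) and Co6 and Co7 of a second brain cut slightly obliquely to it (series Co). Coronal fractions are numbered from the back of the brain to the front. Every fraction was a slab 1 mm thick, collected as 200 slices of 5 µm, and its total RNA was hybridized to its own single-dye Agilent array. All 6 mice of the study were 8-week-old C57BL/6J males, perfused through the heart with RNAlater under anesthesia. No other treatment is described, and each series came from 1 mouse. The 4 fractions were compared with the other 25 coronal fractions of the same mice, with the 2 fractions next to them on the caudal side (C3, C4, Co4 and Co5) and with the 2 next on the rostral side (C7, C8, Co8 and Co9). A fraction held the whole cross-section of the brain, so that posterior cortex, hippocampus and, in part, pons lay in it beside the midbrain. In such bulk slabs, fewer cells of a type and less RNA per cell cannot be told apart.

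The midbrain holds the superior and inferior colliculi in its roof and the tegmentum below. Dopamine neurons of the substantia nigra and the ventral tegmental area lie in the ventral tegmentum, serotonin neurons of the dorsal and median raphe lie at the midline, and the oculomotor and Edinger-Westphal nuclei lie below the aqueduct. Dopamine neurons are known by the synthetic enzymes Th and Ddc, the transporters Slc6a3 and Slc18a2 and the transcription factors Foxa2, Pitx3, Lmx1b and Nr4a2. Many GABA neurons of the midbrain depend on Gata2, Gata3 and Tal1, and Pax7 marks the superior colliculus.

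Upstream sequences are shown for 4 of the genes whose level was highest in these fractions in both mice, because they represent the tectal (Pax7), GABAergic (Tal1), Edinger-Westphal (Ucn) and serotonergic (Tph2) genes described below. Each run gives the 250 bases before the transcription start in the RefSeq annotation of GRCm38.p6, 5′ to 3′ on the strand of the gene, and capitals mark 3 motifs that were searched on both strands, namely TATAAA (the core of a TATA box), the cAMP response element TGACGTCA, and AGATAA, a motif of the GATA factors that reads TTATCT on the opposite strand.
Pax7: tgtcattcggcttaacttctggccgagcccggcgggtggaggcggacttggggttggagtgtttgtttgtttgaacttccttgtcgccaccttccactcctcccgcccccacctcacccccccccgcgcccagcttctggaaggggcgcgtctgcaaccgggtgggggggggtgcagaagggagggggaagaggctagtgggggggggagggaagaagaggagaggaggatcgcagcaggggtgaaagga
Tal1: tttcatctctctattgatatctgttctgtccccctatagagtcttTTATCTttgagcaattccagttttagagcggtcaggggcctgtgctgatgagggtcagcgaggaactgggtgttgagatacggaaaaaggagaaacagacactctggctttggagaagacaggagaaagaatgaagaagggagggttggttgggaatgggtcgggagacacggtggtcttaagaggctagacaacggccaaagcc
Ucn: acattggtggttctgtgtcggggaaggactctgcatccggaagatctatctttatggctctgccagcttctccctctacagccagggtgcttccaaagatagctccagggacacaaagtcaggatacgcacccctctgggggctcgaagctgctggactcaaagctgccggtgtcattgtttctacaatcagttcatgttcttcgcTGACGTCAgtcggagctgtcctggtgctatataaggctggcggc
Tph2: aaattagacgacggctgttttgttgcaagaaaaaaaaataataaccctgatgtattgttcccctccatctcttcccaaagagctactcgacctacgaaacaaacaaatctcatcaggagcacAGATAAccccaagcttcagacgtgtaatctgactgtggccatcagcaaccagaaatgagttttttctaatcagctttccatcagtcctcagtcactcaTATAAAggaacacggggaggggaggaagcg
The Pax7 window (chr4:139832969-139833218, minus strand) was GC-rich, at 65.2%, and held none of the 3 motifs. The Tal1 window (chr4:115056176-115056425, plus strand), taken at the first of 2 starts, held TTATCT 205 to 200 bases before the start. The Ucn window (chr5:31138896-31139145, minus strand) held TGACGTCA 44 to 37 bases before the start, and the Tph2 window (chr10:115185023-115185272, minus strand) held TATAAA 30 to 25 and AGATAA 128 to 123 bases before the start. Of 32851 such windows, 12.4% held TATAAA, 1.55% held TGACGTCA and 9.99% held AGATAA. A match of letters is a description and says nothing about binding.

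The 4 arrays at midbrain level were bright ones. Between 68.4% and 72.2% of the probes were well above background on them, against 61.5% to 73.0% on the other 25 coronal arrays, and the signal at the 75th percentile was 551 to 832 times that of the negative control spots, against 223 to 667 times. Over all detected probes, C5 was most like C6 (Pearson's r = 0.9911 across probes) and Co6 was most like Co7 (r = 0.9897). C6 was most like C7 (r = 0.9919) and Co7 most like Co8 (r = 0.9913). In the other mouse, the fractions most like C5 and C6 were Co6 (r = 0.9839) and Co8 (r = 0.9848). The correlations across the caudal border were lower, at 0.9753 for C4 with C5 and 0.9784 for Co5 with Co6. C5 to C8 shared 1 slide and Co5 to Co8 another. In mouse C, slide and position therefore cannot be told apart for the caudal neighbors, which lay on another slide.

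Against the other 25 coronal fractions, 14 of 34855 probes were higher at midbrain level and 3 were lower at an adjusted p below 0.05, and 2621 had an unadjusted p below 0.05. With 1 probe per gene, 9 of 15115 genes were higher (0.0595%) and 2 were lower (0.0132%). The 9 were Foxa2, Pax7, Ankrd22, Krt79, Tal1, Apol7c, Fcmr, Clca1 and Ddc, and the 2 were Sulf1 and Medag. The other called probes were a further probe each of Ddc and Medag, a probe of Apol7a and 3 probes without a gene name. The probes of Ankrd22, Apol7c and Apol7a and most of the unnamed ones were well above background on none of the other 25 arrays. These entered the test only through the arrays where they were high. The counts include them, and their calls are given as a description. All values are log2 intensities relative to the 75th percentile of the array, so that a level of 0 equals that percentile and levels of different genes are not comparable.

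Foxa2, a forkhead factor of the floor plate and of dopamine neurons, had levels of -3.33 in C5, -1.03 in C6, -3.93 in Co6 and -1.07 in Co7. In the other 25 fractions it ranged from -8.60 to -1.82 with a median of -7.63, and the next rostral fractions C7 (-3.00) and Co8 (-1.82) exceeded C5 and Co6. The midbrain level was higher by 4.84 ± 0.86 (log2, SE; adjusted p = 0.0160, limma). Foxa2 was well above background on 13 of the other 25 arrays, and values at background limit the size of this difference. In both mice the rostral slab, C6 or Co7, was the highest coronal fraction for Foxa2.

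Pax7 was high in all 4 fractions, at -2.87, -3.49, -2.91 and -2.95 in C5, C6, Co6 and Co7. The other fractions lay between -8.05 and -5.48 (median -6.95), so that the groups did not overlap. The difference was 3.80 ± 0.36 (log2, SE; adjusted p = 7.1e-07, limma). Pax7 was well above background on 5 of the other 25 arrays, so that this size too depends on values at background, and under the alternatives run it ranged from 1.47 to 4.07. Tal1, a helix-loop-helix factor that works with Gata2 and Gata3, was at -0.05, -0.10, 0.17 and 0.17, all above the range of the others from -2.91 to -0.47. It was higher by 2.18 ± 0.38 (4.54-fold; adjusted p = 0.0133, limma).

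Ddc, the decarboxylase that makes dopamine and serotonin, was at 2.14 in C5, 2.55 in C6, 2.49 in Co6 and 2.66 in Co7, against -0.14 to 2.30 (median 0.97) elsewhere. Only Co8, at 2.30, exceeded any of the 4. The difference was 1.54 ± 0.28 (adjusted p = 0.0185), and the other Ddc probe gave 1.80 (adjusted p = 0.00303, both limma).

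Ankrd22, an ankyrin repeat protein, was well above background on the 4 arrays and on none of the other 25. Its levels were -4.21 in C5, -6.86 in C6, -4.15 in Co6 and -5.17 in Co7, and the midbrain level was at least 8.64-fold higher (adjusted p = 5.46e-08, limma). This bound sets the mean of the 4 arrays against, for each other array, the lowest signal that was well above background there or the probe's own signal if that was greater. Apol7c, of the apolipoprotein L family, was likewise above background only on the 4 arrays, between -6.65 and -5.98, and was at least 3.41-fold higher (adjusted p = 0.000115, limma). Other Apol7 genes are close in sequence, and its probe may have bound their transcripts as well. Both genes entered the test only through the 4 arrays where they were high, so that their adjusted p is given as a description. Another Apol7c probe on the array was not well above background on any coronal array.

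Fcmr, a receptor for the Fc part of IgM, rose by 1.79 ± 0.29 (adjusted p = 0.00499, limma), with levels of -3.88 to -2.21 against -5.68 to -3.44. Clca1, known as a secreted regulator of chloride channels, was 1.65 ± 0.30 higher (adjusted p = 0.0185) and above background on 1 of the other 25 arrays. Krt79, a keratin, was 2.42 ± 0.43 higher (adjusted p = 0.0160) and above background on 2 of the others. For both genes the size is set against values mostly at background and is no measured fold. In series Co the highest Krt79 level was not at midbrain level but in Co8 (-5.54).

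Both lower genes were abundant everywhere. Sulf1, which removes 6-O-sulfate from heparan sulfate, was at 0.41, 0.19, 0.16 and -0.11 in C5, C6, Co6 and Co7, below all of the other 25 fractions (0.54 to 1.98). It was lower by 1.06 on the log2 scale, that is -1.06 ± 0.19 (adjusted p = 0.0146, limma). Medag differed by -0.61 ± 0.12 (adjusted p = 0.0474), with levels of -0.51 to -0.37 against -0.40 to 0.48. Penk, the enkephalin precursor, had a larger difference of -1.74 that did not pass (adjusted p = 0.0538).

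**Figure D1:**
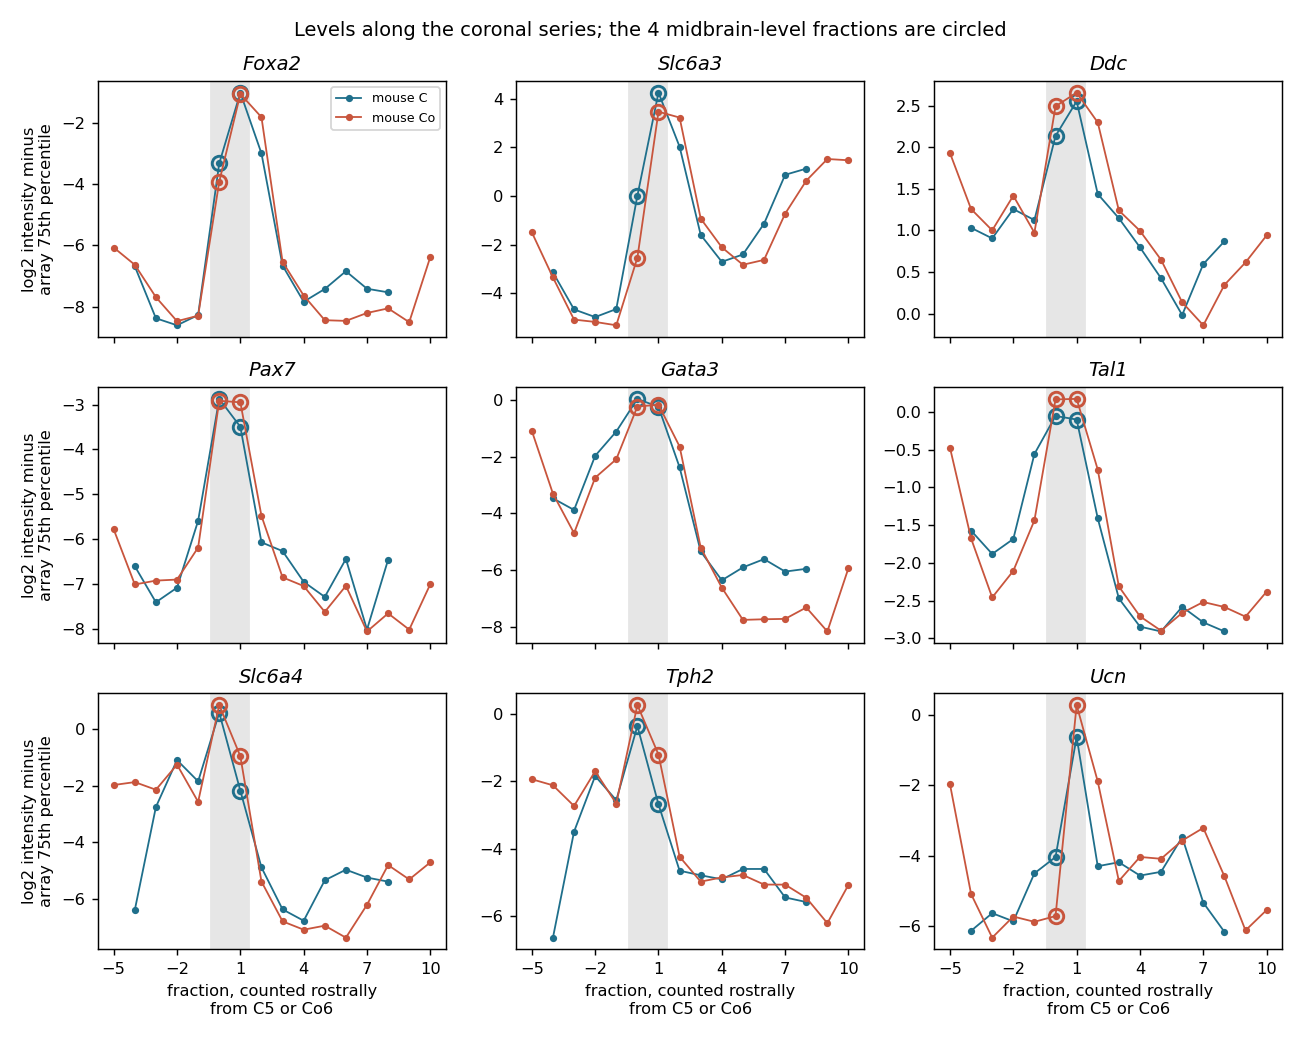
Levels of 9 genes (vertical axes, log2 intensity minus the 75th percentile of the array) along the coronal series of mouse C and mouse Co (horizontal axes, fractions counted rostrally from C5 or Co6). The circled points on gray are the midbrain level: Foxa2, Slc6a3 and Ucn were highest in its rostral slab (C6 and Co7), Slc6a4 and Tph2 in its caudal slab (C5 and Co6), and Pax7 was between -3.49 and -2.87 in all 4.

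The direction was the same in both mice for the 9 higher genes, a condition for naming that removed none of the called genes. No probe differed between the mice in this contrast at an adjusted p below 0.05 (limma interaction test, 435 of 34766 probes at an unadjusted p below 0.05). With 2 midbrain-level arrays per mouse, that test cannot show that the mice agreed. Within the shared slides, the mean differences of the 9 genes were 0.99 (Clca1) to 3.47 (Ankrd22) in mouse C and 0.83 (Krt79) to 4.66 (Ankrd22) in mouse Co. For these 3 genes the sizes are set against values mostly or all at background. Pax7 stayed below an adjusted p of 0.05 when any of the 29 arrays was left out, with a highest value of 3.94e-05. Leaving Ankrd22 and Apol7c aside, the calls of the other 6 higher genes were lost without 1 or more of the midbrain-level arrays. Foxa2 had 0.0678 without C5, 0.212 without C6 and 0.259 without Co7, and Krt79 had 0.0712, 0.215 and 0.180 without the same arrays. Fcmr had 0.0712 without C5 and 0.167 without Co7. Tal1 (0.0712 to 0.150), Ddc (0.0712 to 0.202) and Clca1 (0.0691 to 0.303) lost the call without any of the 4, as did Sulf1 (up to 0.177), and Medag lost it without any of 21 arrays. The 4 arrays came from only 2 mice and adjacent slabs, so that the p-values measure spread along 2 brains and not between mice. With slides as a fixed block, Pax7 and Sulf1 passed, and so did Ankrd22 and Apol7c, whose adjusted p is only a description. The other 7 did not (Foxa2, adjusted p = 1.00, and Ddc, 0.602). With 1 mean per mouse, no probe was called and the adjusted p of Pax7, Ankrd22 and Foxa2 was 0.123.

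The 25 other fractions span the whole brain, and a gene with another site of expression has a large spread among them. A description that does not rest on that spread is the fraction in which a gene peaked. For 271 of 15115 genes (1.79%), the highest coronal fraction was at midbrain level in both mice. Of those named genes that were also well above background on all 4 arrays, the 10 with the largest margin over the highest other fraction were Ankrd22, Pax7, Ucn, Slc6a4, Tph2, Foxa2, Apol7c, Slc6a3, Chrna6 and Fcmr. Pax7 exceeded the next fraction by 2.72 in mouse C and 2.56 in mouse Co. Ankrd22 and Apol7c were well above background on none of the 25 other arrays, so that their margins and places in this ranking are no measured sizes. Among the lists of genes examined, 10 of 21 dopamine neuron genes, 4 of 7 raphe genes, 4 of 9 nicotinic receptor subunits and 4 of 22 tectal and GABAergic factors peaked there in both mice.

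Of the 21 genes of midbrain dopamine neurons, 2 (Foxa2 and Ddc) were higher against the other coronal fractions, 0 were lower, and the median difference was 1.15, beside -0.01 for all genes tested. Slc6a3, the dopamine transporter, was at 0.01 in C5 and 4.25 in C6, and at -2.54 in Co6 and 3.46 in Co7. The rostral slab of each mouse was thus the highest coronal fraction, exceeding the next one by 2.22 in mouse C and by 0.24 in mouse Co, where Co8 reached 3.22. Its level rose again toward the front of the brain, to 1.12 in C13 and 1.52 in Co15. The difference from all other fractions was 3.06 ± 1.39 and did not pass (adjusted p = 0.630). Slc18a2, which loads monoamines into vesicles, was high in all 4 slabs (0.36, 0.55, 0.79 and 0.92, the others -4.32 to 0.19), with a difference of 2.68 ± 0.60 (adjusted p = 0.115). Pitx3, a factor specific to these neurons, peaked in C6 (-3.06) and Co7 (-3.12), with Co8 at -3.16.

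Th, the rate-limiting enzyme, behaved otherwise. It was at -1.22 and 1.20 in C5 and C6 and at -0.70 and 1.21 in Co6 and Co7, but its highest fractions were C13 (3.31) and Co15 (3.98) at the front, where the olfactory bulb has Th neurons, and the difference was 0.00 ± 0.95. Nr4a2 peaked in C5 (2.44) and Co6 (2.92), and this factor is also expressed in the subiculum and claustrum. Gch1, which makes the cofactor of Th, peaked in C5 and Co6 by margins of only 0.14 and 0.08. Lmx1a was not well above background on any of the 4 arrays.

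Among the tectal and midbrain GABAergic factors, 2 of 22 (Pax7 and Tal1) were higher and 0 were lower against the other fractions, with a median difference of 0.77. Gata3 had nearly one level in all 4 fractions, at 0.03, -0.26, -0.24 and -0.17, and lay above all others (-8.15 to -1.10). Its difference was 4.60 ± 1.12 (adjusted p = 0.189), the caudal neighbors C4 (-1.12) and Co5 (-2.09) being intermediate. Gata2 was at -0.88 to -0.53 and also peaked at midbrain level in both mice, by 0.04 and 0.38. Dmbx1, a homeobox factor of the midbrain, peaked instead in C3 and Co4. Meis2 was fitted without Co6, where its spot was an outlier, and differed by -0.72 (adjusted p = 0.858).

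Of 7 raphe genes, 0 passed against the other coronal fractions in either direction, with a median difference of 0.97. With normexp and quantile normalization 2 were higher and the median was 0.42. Slc6a4, the serotonin transporter, was at 0.59 in C5, -2.17 in C6, 0.87 in Co6 and -0.95 in Co7, and the caudal slab was the highest coronal fraction in both mice by 1.68 and 2.11. Tph2, the enzyme that starts serotonin synthesis in the brain, ran in parallel at -0.35, -2.68, 0.28 and -1.20. Both genes had a lower plateau in the caudal neighbors (Slc6a4 -2.57 to -1.09, Tph2 -2.66 to -1.70) and fell off rostrally (Slc6a4 -6.81 to -4.89, Tph2 -4.99 to -4.24). Fev, the factor that specifies serotonin neurons, peaked in C5 (-4.03) and Co6 (-3.53), and Htr1a, an autoreceptor on them, peaked in the same slabs at -1.28 and -2.11. Htr1a is abundant in hippocampus too.

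Ucn, the peptide urocortin of the Edinger-Westphal nucleus, differed widely between the slabs of each mouse. It was at -4.04 in C5 and -0.63 in C6, and at -5.72 in Co6 and 0.28 in Co7. The rostral slab stood 2.85 (mouse C) and 2.17 (mouse Co) above the highest fraction elsewhere, whereas the caudal slab was within the range of the others (-6.33 to -1.89). Cartpt, a peptide of the same nucleus and of many other regions, also peaked in C6 (2.88) and Co7 (3.35). These were the 2 of 10 genes of the oculomotor and Edinger-Westphal list that peaked at midbrain level in both mice. The cholinergic genes of the list, which motor nuclei share with the striatum and the forebrain, did not: Chat was at -6.40 to -5.31 and Slc5a7 at -3.76 to -1.07, within the ranges of the other fractions.

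Slc6a2, the noradrenaline transporter, marks the locus coeruleus of the pons. It was highest in C4 (-0.66) and, in the other mouse, nearly equal in Co5 (-0.93) and Co6 (-0.89), and it fell to -6.33 in C6 and -5.81 in Co7. Dbh, the enzyme that makes noradrenaline, was at -2.99 in C5 and -5.28 in C6, and the rostral slab of mouse Co differed from the caudal one by -3.89. Of the 4 genes of this list 2 were lower than in the caudal neighbors, beside 28.1% of all genes, and 0 passed against the rostral ones. All 4 markers of this pontine nucleus were higher in the caudal than in the rostral slab of both mice. However, 0 of them peaked at midbrain level in both mice.

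Of 9 nicotinic receptor subunits, 4 peaked at midbrain level in both mice, all in the rostral slab. Chrna6, a subunit on dopamine terminals, was at -4.04, -2.22, -4.53 and -2.56, with a difference of 2.86 ± 0.59 (adjusted p = 0.0669). Chrnb3 was at -4.99, -4.03, -5.30 and -3.83, Chrna4 at -0.86, -0.59, -0.56 and -0.34, and Chrna5 at -3.49, -2.85, -4.46 and -3.01 in C5, C6, Co6 and Co7. With the probe used, the 4 Chrna4 levels lay above those of the 8 neighboring fractions (-1.50 to -0.84). The exception was C5, which fell just below the highest of them. Another Chrna4 probe, also well above background, was higher than caudally by 1.76 (adjusted p = 1.03e-06, limma). It did not differ from the rostral neighbors (-0.06, adjusted p = 0.730, limma). Chrnb2, a common partner subunit, ranged only from 0.53 to 0.68 in these slabs and from 0.11 to 1.13 elsewhere.

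The caudal border was sharp. Against the 4 next caudal fractions, 7570 of 32428 probes were higher and 9782 were lower, and with 1 probe per gene 27.4% of 14407 genes were higher and 28.1% were lower. These counts and those against the rostral side rest on the same 4 midbrain-level arrays. The split between the directions depended on the scaling: with each array scaled to its median 9906 were higher and 7020 lower, and in the intensities normalized by the authors 9651 and 7145. The median difference over all probes was -0.07 under the main scaling and 0.04 under the median scaling.

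Fezf2, Crym and Nr2e1, all known from the forebrain, were among the genes with the largest rise across this border. Fezf2, of deep cortical projection neurons, was above background on none of the 4 caudal arrays and was at least 188-fold higher (adjusted p = 5.51e-07). Crym, a thyroid hormone-binding protein of cortex and hippocampus, rose by 7.27 ± 0.37, and Nr2e1, a nuclear receptor of the forebrain, by 6.44 ± 0.95, with 2 of the 4 caudal arrays above background for Nr2e1. Of the cortical list, 10 of 12 genes were higher and 1 (Neurod1, also of cerebellar granule cells) was lower. Among all genes 27.4% were higher and 28.1% were lower than caudally.

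The largest falls were in Ttr, Sycp1, Kcne2, Cbln3 and Prl2c5. The counts of cerebellar and Hox genes are to be read beside the 28.1% of all genes that were lower than caudally. All 11 cerebellar genes tested were lower than in the caudal neighbors, with a median difference of -3.20. Cbln3 of granule cells fell by 4.59 on the log2 scale (adjusted p = 0.00105, limma). Zic1 of this list was fitted without Co6 and Co7, whose spots were outliers. Sycp1, best known from meiotic chromosomes, differed by -5.18 (adjusted p = 0.00108), and Prl2c5, of the prolactin family, by -4.57 (adjusted p = 7.99e-05), though near-identical members of that family may share its probe. Both were above background on 2 of the 4 midbrain-level arrays. Of 12 Hox genes of the hindbrain, 7 were lower, 0 were higher and 5 did not pass. With slides as a fixed block 1 was lower, and within each mouse alone 2 were. Of the cerebellar genes 7 were lower with that block and 4 in series Co alone.

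The counts of the midbrain lists at the caudal border are to be read beside those of all genes, 27.4% higher and 28.1% lower. Of the dopamine genes, 8 of 21 were higher and 5 were lower, among them Foxa2 (6.06 ± 1.15, adjusted p = 0.00171) and Slc6a3 (6.33 ± 1.56, adjusted p = 0.00709) on the higher side. En2, a factor of the mid-hindbrain junction and the cerebellum, was lower (-3.34 ± 0.46, adjusted p = 0.000247). Of the tectal and GABAergic factors, 6 of 22 were higher and 7 were lower, and of the nicotinic subunits 6 of 9 were higher and 1 was lower. Of the 7 raphe genes 1, Htr1a, was higher (1.74 ± 0.16, adjusted p = 2.33e-05), but 3 were higher with scaling to the median and in the values of the authors, and 2 with normexp. Of the oculomotor and Edinger-Westphal genes 0 of 10 were higher and 4 were lower, and 7 were lower and 2 higher without Co6. The 0 depended on the probe: other probes of Cartpt (1.85, adjusted p = 0.0329) and Calca (0.740, adjusted p = 0.0411, both limma) were higher. Another Chat probe did not pass (-1.32, adjusted p = 0.0923, limma). With slides as a fixed block, the called numbers fell to 3 higher and 2 lower for the dopamine genes, 4 and 4 for the tectal and GABAergic factors, and 2 and 1 for the nicotinic subunits. The 8 genes of large and fast-spiking neurons, such as the neurofilaments and Pvalb, included 6 that were lower and 0 that were higher.

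Peptides rose across the caudal border. Of 15 neuropeptide genes, 11 were higher and 2 (Penk and Gal) were lower, with Vip (3.28 ± 0.23), Grp (3.27 ± 0.43) and Tac2 (2.08 ± 0.23) among the higher. Grp, the gastrin-releasing peptide, peaked in C6 (2.52) and Co7 (2.44). Of 14 peptide receptors, 9 were higher, including the neurokinin receptor Tacr3 (1.47 ± 0.12), and 1 was lower (Crhr1, -0.72 ± 0.06). These shares are to be read beside the 27.4% and 28.1% of all genes.

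**Figure D2:**
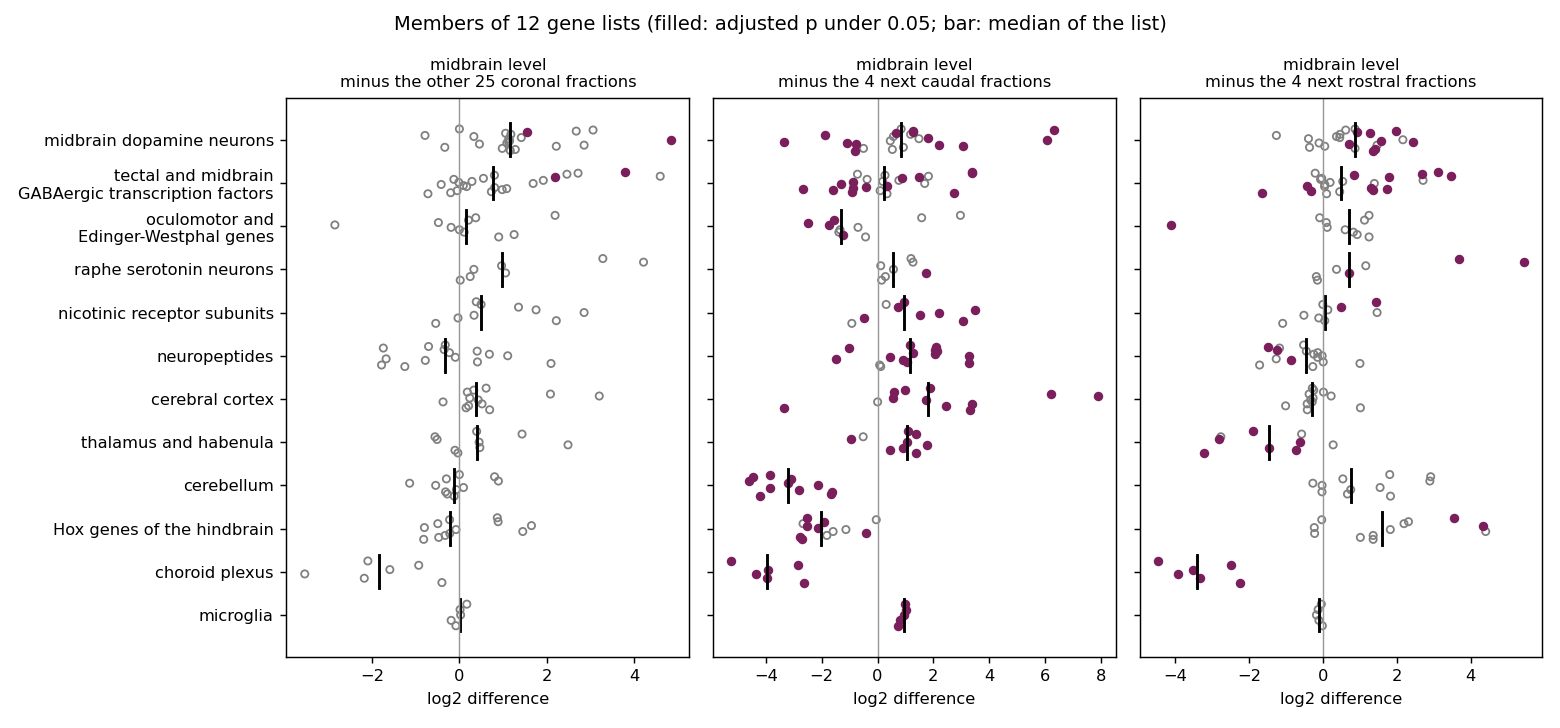
Log2 differences of the midbrain level (horizontal axes) from the other 25 coronal fractions, the 4 next caudal and the 4 next rostral fractions for the members of 12 gene lists (rows), with filled points at an adjusted p below 0.05 and bars at the median of a list. The cerebellar genes were all lower than in the caudal fractions (median -3.20), and the choroid plexus genes were lower than on both sides (medians -3.95 and -3.42).

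Toward the rostral side, far fewer probes changed. Against the 4 next rostral fractions, 930 of 32423 probes were higher and 740 were lower, and with 1 probe per gene 3.69% of 14402 genes were higher and 2.85% were lower. These counts moved with single arrays: 336 probes were called without Co9, 404 without C5, 446 without C8, 570 without C7, 739 without Co6, 1003 without C3 and 3607 without C6.

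The genes with the largest rise over the rostral neighbors were Slc6a4, Slc6a5, Hoxb2, Ankrd22 and Uts2. Slc6a4 was higher by 5.45 ± 0.72 (adjusted p = 0.00546, limma) and Tph2 by 3.68 ± 0.54 (adjusted p = 0.00877). Slc6a5, the glycine transporter of hindbrain and spinal neurons, was higher by 4.65 ± 0.81 (adjusted p = 0.0177), Hoxb2 by 4.33 ± 0.56 (adjusted p = 0.00511), and Uts2, a peptide of motor neurons, by 3.83 ± 0.81 (adjusted p = 0.0323). Slc6a4 and Slc6a5 were each above background on 2, Hoxb2 on 1 and Uts2 on 1 of the 4 rostral arrays. The call of Slc6a5 was lost without C5, C8 or Co9 and that of Uts2 without C3, C5, C7, C8, Co8 or Co9, with adjusted p up to 0.0678 and 0.112. Ankrd22 was at least 7.28-fold higher (adjusted p = 0.00694, limma). It entered this test too only through the 4 midbrain-level arrays, so that its adjusted p is given as a description.

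The counts here are to be read beside those of all genes, 3.69% higher and 2.85% lower than rostrally. Of the 21 dopamine genes 8 were higher and 0 were lower, the higher being En2, Slc18a2, En1, Slc10a4, Sncg, Gch1, Ddc and Aldh1a1. This count was 2 without C5, 4 without Co6 or without Co7, 5 in the values of the authors, 2 with slides as a fixed block and 0 in either mouse alone. Foxa2 (2.17 ± 1.15, adjusted p = 0.293) and Slc6a3 (0.62 ± 1.56, adjusted p = 0.853) did not pass, and C7 and Co8 still had Slc6a3 levels of 2.02 and 3.22. Of the 22 tectal and GABAergic factors 8 were higher and 3 were lower (3 and 0 without C5, 4 and 0 without Co6), with Gata3 (3.48 ± 0.80, adjusted p = 0.0419), Pax7 (3.11 ± 0.37, adjusted p = 0.00379) and Gata2 (0.84 ± 0.14, adjusted p = 0.0151) among the higher. Helt, a factor of midbrain and thalamic GABA neurons, was lower (-1.65 ± 0.37, adjusted p = 0.0388). Spp1, osteopontin, of large brainstem neurons, was higher by 2.16 ± 0.26 (adjusted p = 0.00353), 1 of 4 genes called among the 8 of large and fast-spiking neurons (1 without C5, 2 without Co6, 7 without C6).

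The counts of hypothalamic and thalamic genes are to be read beside those of all genes, 2.85% lower and 3.69% higher than rostrally. Of 10 hypothalamic genes 4 were lower than in the rostral neighbors and 0 were higher. Pmch and Hcrt, the peptides of the lateral hypothalamus, were at -4.56 to -3.79 and -4.03 to -3.01 against maxima of 4.05 and 4.89 in Co9, with differences of -6.46 ± 0.72 (adjusted p = 0.00264) and -6.36 ± 0.94 (adjusted p = 0.00897). Nkx2-1, a hypothalamic factor, was not well above background on any midbrain-level array, and the rostral neighbors were at least 20.1-fold higher (adjusted p = 0.000356). Cga, a subunit of pituitary hormones, was above background on 1 of the 4 arrays and on all 4 rostral ones, where its level was -4.58 to -1.23 (adjusted p = 0.00410). Its difference ranged from -6.58 to -2.13 over the alternatives run. Of 9 thalamic and habenular genes, 6 were lower and 0 were higher, with Prkcd (-2.82 ± 0.28) and Gpr151 of the habenula (-3.22 ± 0.42) as examples. Lhx9 was the exception that peaked at midbrain level in both mice, in C5 (-0.69) and Co6 (-0.08).

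The counts of the remaining regional lists are to be read beside the shares of all genes. Those were 27.4% higher and 28.1% lower than caudally, and 3.69% higher and 2.85% lower than rostrally. Of 10 genes of fast transmitter identity, 2 were higher and 5 lower than caudally, and 2 were higher than rostrally. Of 8 hippocampal genes 5 were higher and 3 lower than caudally and 1 was lower than rostrally. Of 7 genes of the subiculum and its neighbors 4 were higher and 2 lower than caudally, and 3 were higher than rostrally. Striatal genes numbered 3 higher and 1 lower of 9 on the caudal side and 0 called on the rostral side, and hypothalamic genes 0 of 10 on the caudal side. Of 6 pituitary genes 1 was lower on each side.

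Choroid plexus genes formed a trough between the neighboring fractions. Against all other coronal fractions 0 of 6 passed, with a median difference of -1.84. The lowest summed linear level elsewhere, 0.94, lay within the range of the midbrain level (0.89 to 1.52). Ttr, transthyretin, was at -3.24, -2.14, -2.07 and -3.36 in C5, C6, Co6 and Co7, against 1.81 to 3.07 caudally and 1.38 to 2.37 rostrally. It differed by -5.23 ± 0.34 (adjusted p = 3.79e-06) and -4.47 ± 0.34 (adjusted p = 0.000340). All 6 genes of this list were lower than on either side, and Kcne2, a potassium channel subunit of the same epithelium, differed by -5.13 and -3.89. The 3 ependymal genes were lower than on the caudal side, and 2 of them on the rostral side. Both lists are to be read beside all genes, of which 28.1% were lower than caudally and 2.85% lower than rostrally.

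Markers of other cell types and regions were also called at the borders. Among all genes, 27.4% were higher and 28.1% lower than caudally, and 3.69% were higher and 2.85% lower than rostrally. The 5 microglial genes were all higher than in the caudal fractions (median 0.93) and 0 of 5 changed against the rostral ones. Of 6 meningeal fibroblast genes 5 were higher than rostrally (median 0.82), with a summed linear level of 16.4 to 27.4 against 9.11 to 15.8, and 3 were higher than caudally. The 5 became 0 without C5, 1 without Co6 and 2 without Co7. Of 11 myelin genes 4 were lower and 1 was higher than caudally and 0 passed rostrally. The 4 became 1 with scaling to the median and in the values of the authors, 7 with normexp, 9 without Co6 and 0 with slides as a fixed block. Of the other lists, the astrocyte list had 4 of 8 lower caudally and 1 higher rostrally. Of 6 endothelial genes 4 were lower than caudally (2 with scaling to the median) and 1 was higher than rostrally. Both blood genes were lower than caudally. The hemoglobin gene Hba-a1 was at 1.14 to 2.42 in the 4 slabs. Of the 6 pituitary genes 3 were well above background on all 4 arrays, whereas Gh and Tshb were so on 1 each. The part of blood and pituitary RNA in the differences was not tested.

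The difference between the 2 slabs had the same direction in both mice for most of the midbrain genes, but also for most of all genes. It is a description of 1 pair of arrays per mouse. Going from the caudal to the rostral slab, Slc6a3 rose by 4.24 in mouse C and 6.00 in mouse Co, Ucn by 3.41 and 6.00, Foxa2 by 2.30 and 2.85, Th by 2.42 and 1.91, and Chrna6 by 1.82 and 1.97. In the same step Slc6a4 changed by -2.77 and -1.82, Tph2 by -2.33 and -1.47, Slc6a2 by -3.17 and -4.92, Cbln3 by -2.95 and -3.57, and Hoxb2 by -2.20 and -0.50. Pax7 (-0.62 and -0.03), Tal1 (-0.05 and 0.01) and Gata3 (-0.29 and 0.07) hardly changed. Counted over whole lists, the caudal slab was the higher one in both mice for 6 of 7 raphe genes, 4 of 4 coeruleus genes and 10 of 10 cerebellar genes with values in all 4 slabs. Of the 21 dopamine genes 10 were higher in the rostral and 9 in the caudal slab of both mice, and of the 10 oculomotor and Edinger-Westphal genes 2 and 8. For the tectal and GABAergic factors the numbers were 6 and 10 of 21 with values. For the genes of large and fast-spiking neurons they were 0 and 8 of 8, and for the myelin genes 0 and 10 of 11. Over all 14947 genes with values, 4754 were higher in the rostral and 5408 in the caudal slab of both mice.

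**Figure D3:**
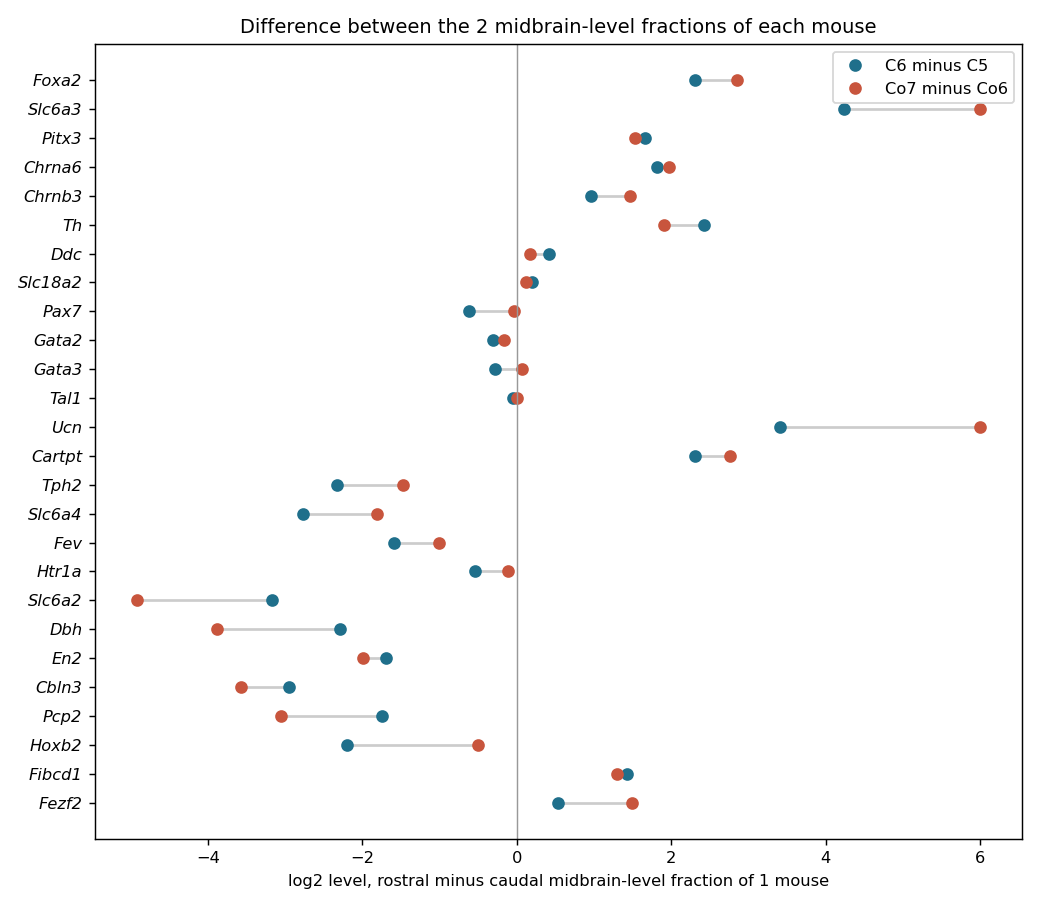
Log2 level of the rostral minus the caudal midbrain-level slab (horizontal axis) in mouse C (C6 minus C5) and mouse Co (Co7 minus Co6) for 26 genes (rows), 1 point per mouse. Slc6a3 and Ucn were higher in the rostral slab by 3.41 to 6.00, Slc6a4, Tph2 and Slc6a2 were higher in the caudal slab, and Pax7, Tal1 and Gata3 lay near 0.

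The 4 brains cut in other planes gave the position of these genes along the other axes, with 1 brain per series and no test. In the sagittal series, numbered from left to right, Slc6a4 peaked in the middle fractions S6 (0.19) and So6 (-0.25), 5.74 and 3.70 above the median of the series, and Ucn peaked in the same fractions at -0.24 and -0.80. Slc6a3 peaked in the next fractions to the side, S5 (2.96) and So7 (3.01). In the horizontal series, numbered from dorsal to ventral, Pax7 peaked dorsally in H2 (-3.81) and Ho3 (-4.05), Gata3 in H2 (-1.39) and Ho3 (-1.38), Slc6a4 in H3 and Ho4, Ucn in H4 and Ho5, and Slc6a3 in H4 (2.65) and Ho6 (2.72). Ankrd22 peaked dorsally in H2 (-5.75) and Ho2 (-4.83), and was above background on 2 arrays of each of these series. Its sagittal peaks were S2 (-5.69) and So3 (-5.81), with 1 of 9 and 0 of 10 arrays above background.

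**Figure D4:**
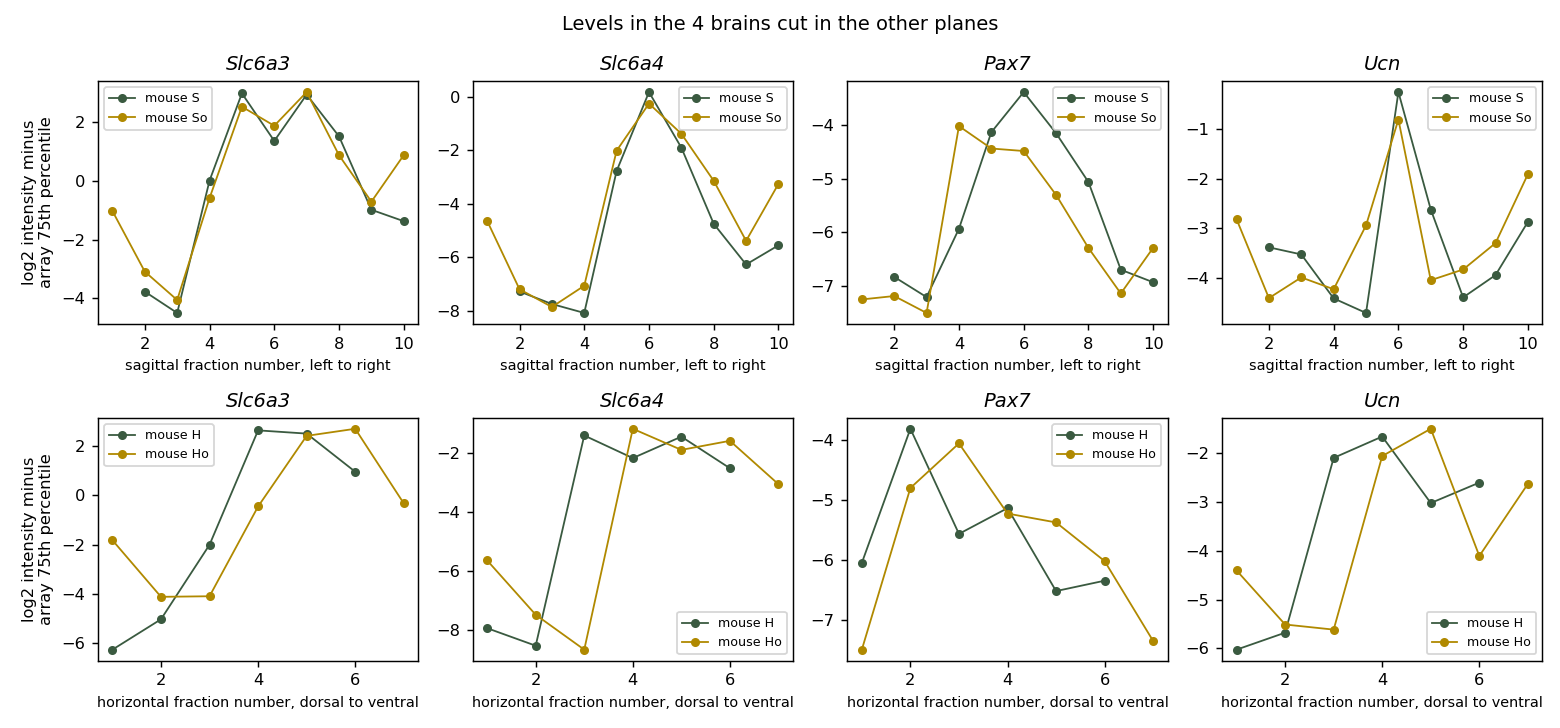
Levels (vertical axes, log2 intensity minus the 75th percentile of the array) of Slc6a3, Slc6a4, Pax7 and Ucn in the sagittal fractions of mice S and So (top) and the horizontal fractions of mice H and Ho (bottom). Slc6a4 and Ucn peaked in the middle fraction 6, Slc6a3 beside it, and Pax7 peaked more dorsally (H2 and Ho3) than Slc6a3 (H4 and Ho6).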

How the data were processed

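Gene expression was measured in 61 slabs of 6 mouse brains on single-dye Agilent arrays. The deposited scanner files hold the background-subtracted intensity of each spot from Feature Extraction 9.1.3.1 without normalization between arrays, and the authors also deposited intensities normalized per array in GeneSpring, of whose 61 columns 0 were left unused and whose scale is linear. The files name another array design than the methods, and the names in the files were used. Here log2 intensities were taken per probe (41174 probes, mean of the spots that were neither controls nor outliers) and reduced by the 75th percentile of the array. RefSeq accessions named 22944 probes and 16355 genes; 2566 further RefSeq-like accessions had no match. Promoter sequences came from the RefSeq table of GRCm38.p6.

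Probes well above background on at least 1 array of a fit were tested with limma 3.58.1 (lmFit and eBayes, R 4.3.3) with the series, that is the mouse, as a block, and Benjamini-Hochberg adjustment over all probes tested. The main model held 29 coronal arrays, and the comparisons with neighbors held 12. Arrays of a series come from 1 mouse, which gives the block. The models were also run on simulated data in which 200 probes were changed by known amounts. Noise was drawn independently for each array there, so that this cannot show how the p-values behave for adjacent slabs of 1 brain. Tables and figures used Python 3.11.15 with pandas 2.3.3 and matplotlib 3.10.9. Replicate spots had a median SD of 0.04 to 0.11 (log2) per array, and the number of mice and slabs limits the precision.

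With 1 probe per gene, the one with the highest mean level, the genes named were the 14 highest and 10 lowest called against the other coronal fractions with the same sign in both mice (9 and 2 existed; well above background on all 4 midbrain-level arrays, or on at least 20 of the others for lower ones), the 10 peaking most clearly at midbrain level in both mice, the 5 largest in each direction against either neighbor, and the members of 27 lists. Probes of Riken clones and predicted genes were counted and not named. The members and lists were chosen with earlier results of these data known. Alternatives were the scaling, normexp with an offset of 50, the table of the authors, the filter on dim probes, blocks, batches, single mice, leaving out arrays and an adjusted p of 0.01. Leaving out the other coronal arrays and the values within slides were added after seeing the data. Some genes that this rule selects are not reported here.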

Additional observations from a re-analysis of the deposited data

Results flagged for a closer look

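Of 49 groups of 4 arrays examined for the genes named by size or margin, 3 held an array whose gap to the nearest other, divided by the range of the group, exceeded the 95% limit of Dixon's test for 4 values. Chance gives about 1 in 20. C6 lay apart from the other midbrain-level arrays for Pax7 (ratio 0.875; -3.49 against -2.95 to -2.87), Apol7c (0.875; -6.65 against -6.06 to -5.98) and Medag (0.840; -0.51 against -0.40 to -0.37). It was the lowest of the 4 each time.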

How the results depend on the processing

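Against the other coronal fractions, 14 probes were higher and 3 lower. Those counts became 14 and 1 with scaling to the median, 31 and 4 with normexp and quantile normalization, 13 and 1 in the table of the authors, 166 and 3524 with all non-control probes, 4 and 1 with probes well above background on all arrays, 10 and 1 with slides as a random block, 5 and 1 with slides as a fixed block, 0 and 0 with means per mouse, 0 and 0 in series C alone, 5 and 0 in series Co alone, 62 and 14 without the 8 neighbors, and 7 and 0 at an adjusted p below 0.01. Of the 3524, 3393 were not well above background on any coronal array. With no replicate block (the mouse left out of the model) the counts were 15 and 4, and leaving out single arrays gave 6 to 21 and 0 to 6. Slides as a fixed block ended the calls of 7 of the 11 genes, and as a random block those of Foxa2 (adjusted p = 0.468), Krt79 (0.322), Clca1 (0.158), Ddc (0.133) and Medag (0.322). The cause of these shifts was not tested.

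Against the caudal neighbors (7570 higher, 9782 lower), no replicate block gave 4772 and 5622, the slide as a fixed block 4338 and 5289, series Co alone 4465 and 3966, all probes 14863 lower, and leaving out single arrays 6771 to 7375 and 8539 to 9988. Against the rostral neighbors (930 and 740), no replicate block gave 176 and 285, the slide as a fixed block 47 and 131, series C alone 2 and 26, series Co alone 0 and 0, all probes 484 higher, an adjusted p below 0.01 gave 78 and 177, and leaving out single arrays 115 to 2265 and 221 to 1342. Of 545 probes that peaked at midbrain level in both mice, 303 to 426 did so without 1 of the 4 arrays. Of the 16, 10 and 10 genes followed through the alternatives in the comparisons with all other, caudal and rostral fractions, 0 changed sign. The members of the lists were followed by counts and medians, and some list medians did change sign. That of the Hox genes against the other fractions went from -0.22 to 1.35 with slides as a fixed block, and that of the thalamic genes from 0.40 to -0.83. The comparisons rest on 2 mice, and signals near background limit Ankrd22, Apol7c, Clca1 and Krt79.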
